A study of Homo sapiens with 9 samples.

Results

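The genes described here encode the subunits of the proteasome, its activators, its inhibitor-like regulator and the chaperones that assemble it. They were chosen by name: every protein-coding gene of the deposited count table whose symbol begins with PSMA, PSMB, PSMC, PSMD, PSME, PSMF or PSMG and a digit, without PSMB8 and PSMB9. The rule found 47 of the 58735 genes in the table. One of them, PSMC3IP, matches by name alone: it encodes a cofactor of meiotic recombination, so 46 members are proteasome genes. RNA was sequenced from OVCAR3, an established human ovarian cancer line, at 72 h of culture. The control group carried a scramble shRNA and is labelled WT in genotype, and the other 2 groups carried shRNA#76 or shRNA#78 against GPX3 and are labelled as GPX3 knock-down; they are called scramble, sh76 and sh78 here. Each group had 3 libraries, and the comparison asks what changes in these cells when GPX3, a secreted peroxide-reducing selenoprotein, is lowered. All cells are of a single line, the hairpin vectors and transductions were not used here, and nothing says whether replicates came from separate cultures, so p-values measure the spread between these libraries, which may be technical.

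The proteasome is the protease that degrades proteins marked with ubiquitin chains. Its core particle is a barrel of alpha and beta rings, with the active sites of PSMB5, PSMB6 and PSMB7 facing the inner chamber. The regulatory particle binds and unfolds substrates: its base holds the PSMC ATPases, and its lid holds the deubiquitinase PSMD14. Subunit genes are known to be induced together by the transcription factor NFE2L1 when proteasome activity is limiting, and interferon-gamma induces alternative catalytic subunits and the PA28 activator genes PSME1 and PSME2.

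Total counts ran from 14652965 to 21327562 per library, so a CPM (count scaled to library size) of 1 stood for 14.7 to 21.3 counts, and mitochondrial genes took 4.24% to 5.16% of counts. GPX3, the targeted gene, was at 173, 109 and 117 CPM in scramble, 56.8, 55.2 and 55.5 in sh76, and 35.3, 28.4 and 28.3 in sh78, with no overlap between groups. On the log2 scale it fell by 1.25 (SE 0.16) with sh76 and by 2.12 (SE 0.17) with sh78, with edgeR adjusted p-values of 0.00264 and 0.000125. Markers of the labelled cell type were high: mean scramble levels were 121 FPKM (fragments scaled for gene length and library size) for PAX8, 125 for EPCAM and 804 for KRT8, against 0.08 for the leukocyte gene PTPRC and 0.07 for the endothelial gene CDH5. Of 5 markers of other cell types, COL1A1, a fibroblast collagen, was the highest at 3.27 FPKM, and the rest were under 0.1 FPKM. Of the 7 carcinoma markers examined, PAX8 fell with sh76 (log2 −0.28), and KRT8 (−0.52), KRT18 (−0.46) and EPCAM (−0.33) fell with sh78, with edgeR adjusted p-values of 0.0196, 0.00259, 0.0105 and 0.00387. With the replicate number as a block, KRT8, KRT18 and EPCAM were also called lower with sh76, KRT7 was called higher with both hairpins (0.24 and 0.16, blocked edgeR adjusted p = 2.14e-05 and 0.00391), and MUC16 higher with sh76 (0.18, blocked edgeR adjusted p = 0.0490). Their part in the values below was not tested.

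Proteasome genes were strongly expressed, with levels that differed widely between subunits that sit in the same complex. The 46 proteasome genes took 0.616% to 0.669% of all counts in a library. Of the detected ones, the median scramble level was 23.4 FPKM, against 7.21 FPKM for the 11031 protein-coding genes at 1 FPKM or more. Counting PSMC3IP, 43 members reached 1 FPKM, 38 reached 10 FPKM and 5 reached 100 FPKM. FPKM is scaled per length, so it was used wherever genes are compared with each other, and CPM wherever libraries are compared. The length is that of all annotated exon bases of a gene: 2387 for PSMC4, 7482 for PSMC6 and 10418 for PSMG4. FPKM differences between members thus depend in part on the annotation. Over all libraries PSMC4 had 163147 counts, PSMC6 12248 and PSMG4 2871.

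**Figure D1:**
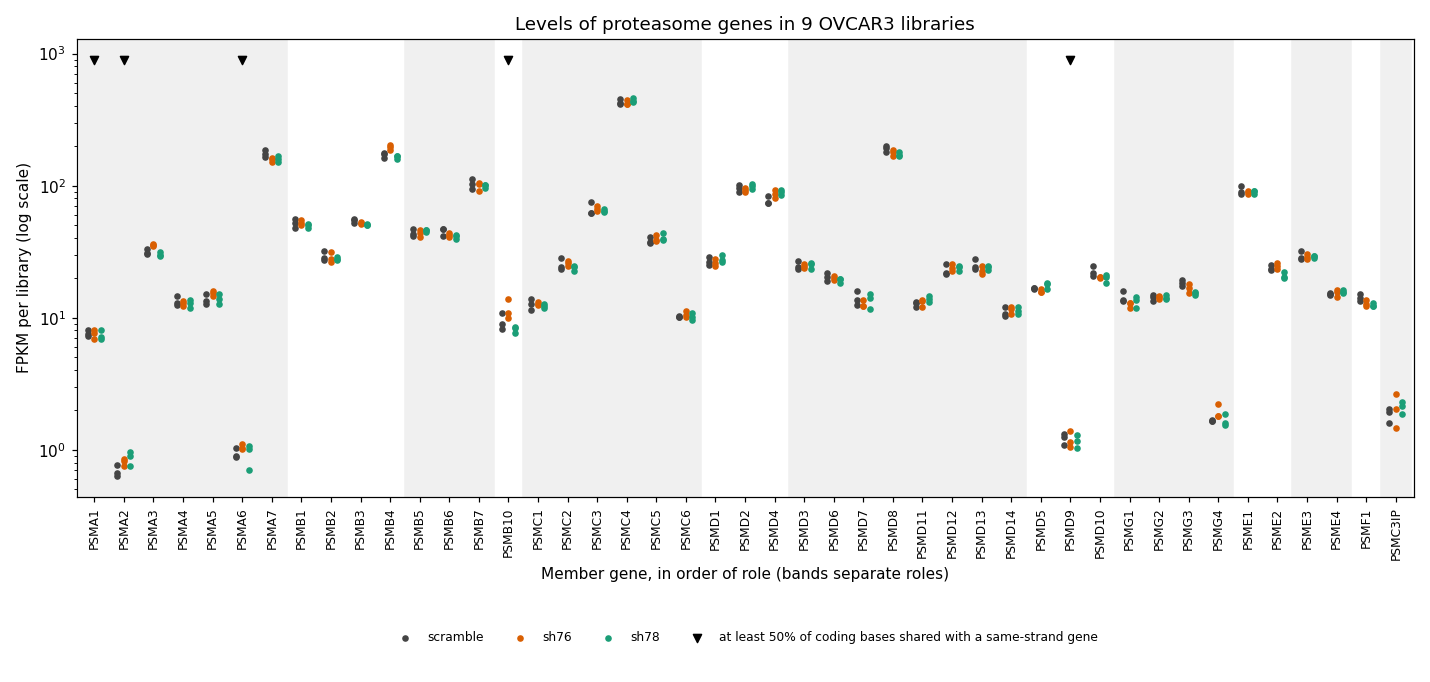
FPKM of each detected member in each of the 9 libraries, on a log axis, ordered by role (shaded bands), with 1 point per library colored by group. PSMC4 lies above all other members and PSMA2 below them, and black triangles mark the 5 members that share at least 50% of their coding bases with another gene on the same strand.

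Within the core particle, the alpha ring, which gates the entry of substrates, ran from PSMA2 at 0.69 FPKM to PSMA7 at 175 FPKM in scramble. The structural beta subunits ran from PSMB2 at 29.02 to PSMB4 at 171 FPKM. The catalytic subunits were closer together: PSMB5, which carries the chymotrypsin-like site, was at 44.1 FPKM, PSMB6, which carries the caspase-like site, at 45.3 FPKM, and PSMB7, which carries the trypsin-like site, at 103 FPKM. PSMB10, the interferon-inducible counterpart of PSMB7, was lower at 9.30 FPKM. The tissue-restricted core subunits were near 0: PSMB11, known from the thymus, had no count in any of the 9 libraries, and PSMA8, known from the testis, had 1 count in sh78 replicate 1 and none elsewhere. These were the only 2 members that failed the filter on low counts, which left 45 tested.

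In the regulatory particle, the ATPases ran from PSMC6 at 10.2 FPKM to PSMC4 at 433 FPKM, although each is present once in the assembled ring. PSMC4 was the most abundant member, at 1025, 1004 and 1086 CPM in the scramble libraries. The 40 genes at 1 FPKM or more within 1 Mb of PSMC4 had a median of 24.2 FPKM, the highest among the 34 members with at least 10 such neighbours, whose next highest was 17.95 FPKM; DNA copy number was not analysed here. The lid ran from PSMD14 at 11.01 FPKM to PSMD8 at 191 FPKM, and the large base subunits PSMD1 and PSMD2, which receive ubiquitin receptors and shuttles, were at 26.7 and 95.3 FPKM. PSMD4, a ubiquitin receptor, was at 77.2 FPKM. The base assembly chaperones were lower, from PSMD9 at 1.22 to PSMD10 at 22.4 FPKM, as were the core assembly chaperones, from PSMG4 at 1.66 to PSMG3 at 18.4 FPKM. Among the activators, PSME1 and PSME2, the alpha and beta chains of the PA28 cap, were at 91.9 and 23.8 FPKM. PSME3, which forms the nuclear PA28 gamma cap, was at 29.4 FPKM, and PSME4, the large single-chain activator, at 15.05 FPKM. PSMF1, which encodes the regulator PI31, was at 14.2 FPKM.

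The lowest members were mostly genes whose sequence is annotated in another gene as well. In the GENCODE 29 annotation, 97.1% of the coding bases of PSMA2 lie in exons of AC010132.3, a readthrough gene on the same strand, 88.6% of those of PSMA1 in AC018523.2, and 70.4% of those of PSMA6 in AL121594.1. For PSMD9 the share was 58.7% and for PSMB10 58.3%. Of the 7 detected members under 10 FPKM, 5 shared at least 50% of their coding bases in this way, against 0 of the 38 at 10 FPKM or more. The partner genes had few counts themselves: 0 in every library for the partner of PSMA1, 0 to 3 for that of PSMA2, 0 to 4 for that of PSMA6, and 15 to 29 for that of PSMB10. Reads that fall in 2 genes can be dropped in counting, and the setting used was not given in the sources used here, so the levels of these 5 members are uncertain; the part of the shared sequence in them was not tested. PSMA6 also had pseudogene counts equal to 22% of its own, and 75.8% of the exon bases of PSMC1 lie opposite NRDE2, which libraries without strand cannot separate.

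**Figure D2:**
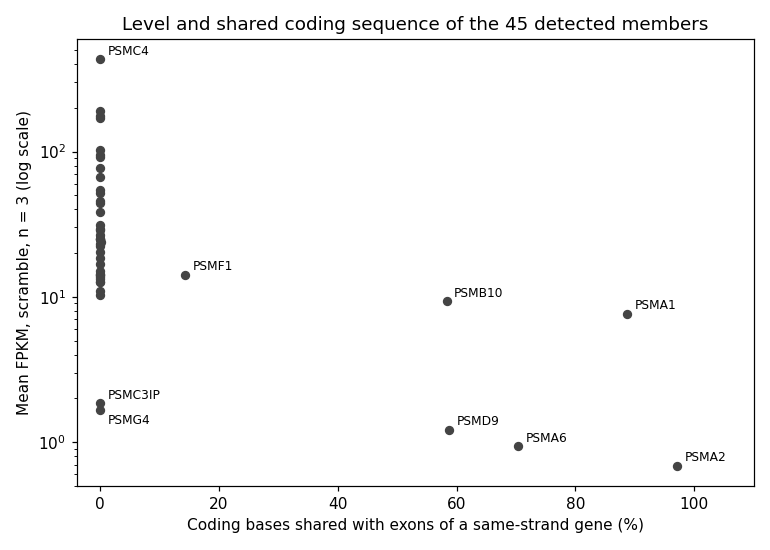
Mean scramble FPKM (log axis, n = 3) of the 45 detected members against the percent of their coding bases that lie in exons of another gene on the same strand. The 5 members to the right of 50% all lie under 10 FPKM, and PSMC3IP and PSMG4 are low with no coding bases shared on the same strand.

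Without pairing the libraries, edgeR called no proteasome gene against scramble with either hairpin. Blocked by replicate number, the same test called 5 with sh76, 7 with sh78 and 6 for the mean of both. These were 11.1%, 15.6% and 13.3% of the tested members, against 20.4%, 19.9% and 20.3% of all genes. Those members are named after the promoters. The unpaired edgeR quasi-likelihood test called 0 of the 45 tested members with sh76, where it called 3.58% of all 17023 genes tested, and 0 of 45 with sh78, where it called 4.41%. For the mean of both hairpins it called 0 members, against 4.04% of all genes, and with both hairpins in the same direction 0 members, against 1.32%. At an unadjusted p under 0.05 there were 5 members with sh76 (11.1%, against 17.4% of all genes), 6 with sh78 (13.3%, against 17.5%) and 6 for the mean (13.3%, against 17.6%). DESeq2 called 1 member with sh76, PSMB4 (2.22%, against 5.17% of all genes), and 0 with sh78 (5.79%) or for the mean (5.82%). In bulk RNA, fewer cells of a type and less RNA per cell cannot be told apart, and both hairpins are compared with the same 3 scramble libraries.

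The changes that were measured were small and went both ways. With sh76 the median log2 fold change over the members was −0.01, from −0.19 (PSMG1) to 0.32 (PSMB10), with 21 members above 0 and 24 below. With sh78 the median was −0.04, from −0.26 (PSMG3) to 0.34 (PSMA2), with 17 above and 28 below. Over all genes tested the median was 0.01 in both comparisons. The log2 fold change was under 0.2 in size in 42 of 45 members (93.3%) with sh76 and likewise in 42 with sh78, against 73.2% and 72.7% of the 11820 genes in the same span of mean level. The median size was 0.05 and 0.06 over the members, against 0.11 and 0.11 over those genes. That span ran from 4.24 to 1045 CPM, and the genes were not matched to the members in level within it. The part of level in the gap was not tested.

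The precision of the fit without the block bounds what could have been missed by that fit. It leaves differences between replicate numbers in the spread. Intervals were not computed with the block, which called 5 members with sh76 and 7 with sh78 (11.1% and 15.6%, against 20.4% and 19.9% of all genes). The 95% interval of the log2 fold change reached 0.16 to either side of the estimate at the median member with each hairpin. The interval lay within ±0.5, a 1.41-fold change, for 41 of 45 members with sh76 and 43 with sh78, and within ±1 for all 45 with each. Within ±0.25 lay 27 members with each hairpin, so smaller changes in the other 18 were not bounded this closely. The widest bounds, 0.62 and 0.73, belonged to PSMA2, the lowest detected member.

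**Figure D3:**
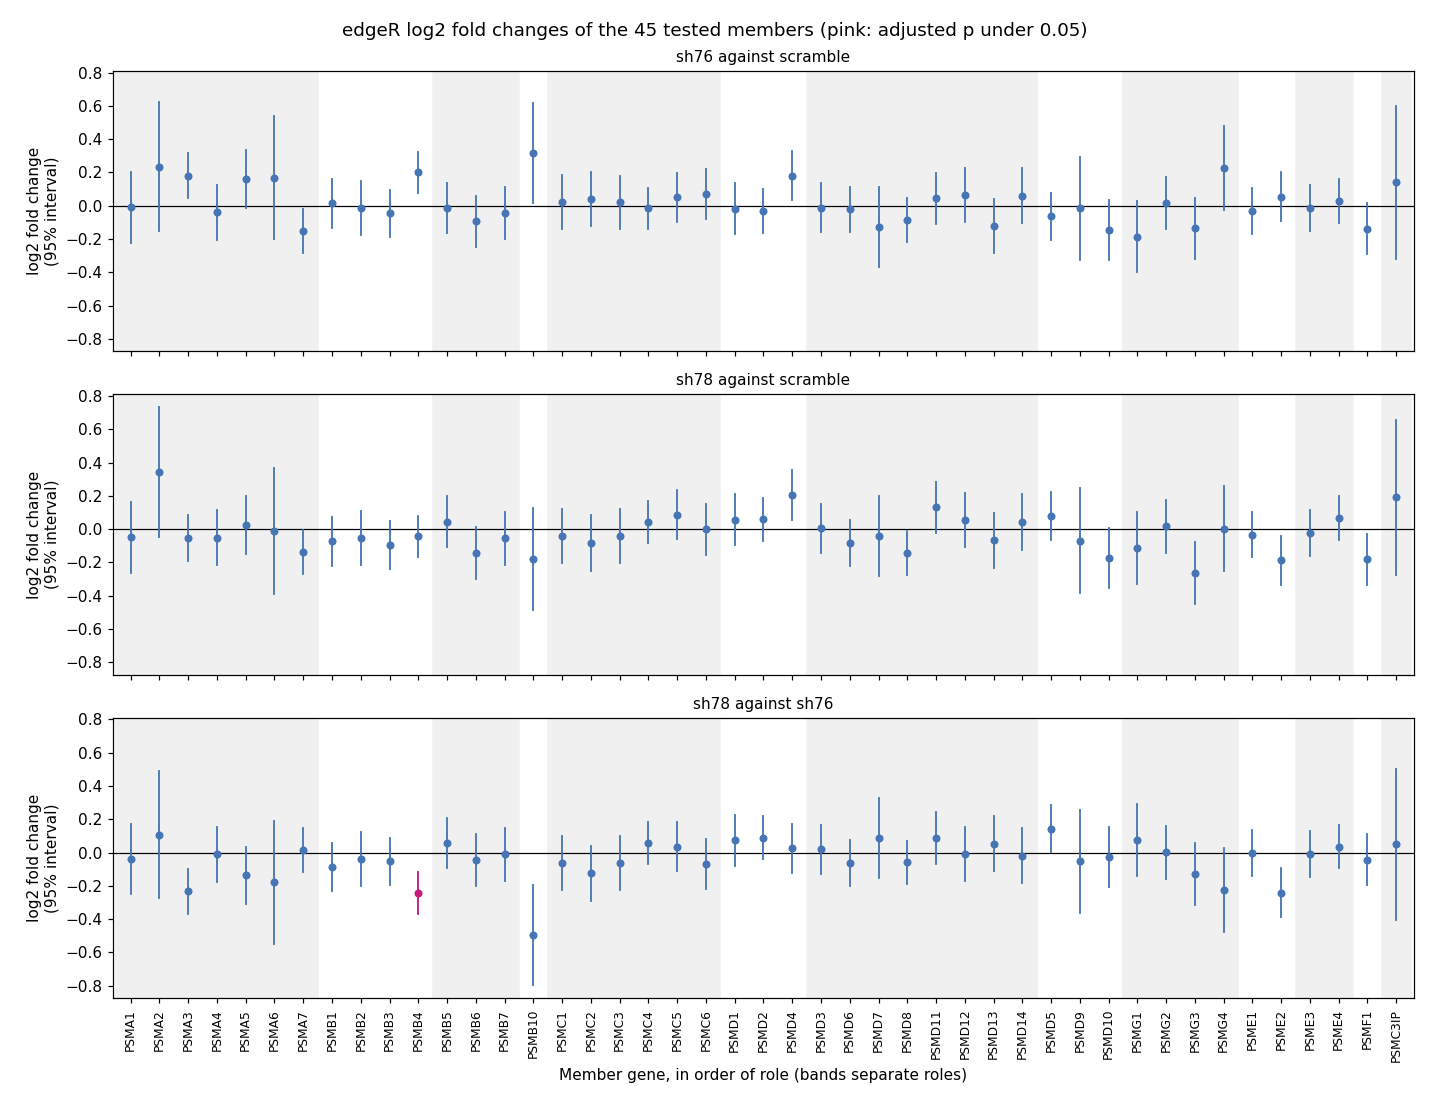
log2 fold change of each tested member (points) with its 95% interval (bars) from the edgeR fit without the block, for sh76 against scramble, sh78 against scramble and sh78 against sh76, ordered by role. Most points lie within 0.2 of 0, and the only colored point is PSMB4 in the comparison of the hairpins.

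Summed by particle, the groups overlapped. The 20S core particle (15 genes) summed to 1638 ± 92.6 CPM in scramble, 1671 ± 63.4 in sh76 and 1568 ± 44.5 in sh78 (SD, n = 3). That sum leaves out PSMB10 and PSMB11. The 19S regulatory particle (17 genes) summed to 3872 ± 216, 3856 ± 160 and 3909 ± 138 CPM. For the activators with PSMF1 (5 genes) the sums were 633 ± 28.6, 628 ± 24.7 and 615 ± 13.6 CPM, and for the assembly chaperones (7 genes) 278 ± 11.1, 265 ± 5.37 and 268 ± 14.6 CPM. In all 4 sums, replicate 3 was the highest library of scramble and of sh76, and replicate 2 the highest of sh78. The gap between a hairpin's mean and the scramble mean was smaller than the scramble SD in each case but the chaperones with sh76, where the libraries still overlapped.

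**Figure D4:**
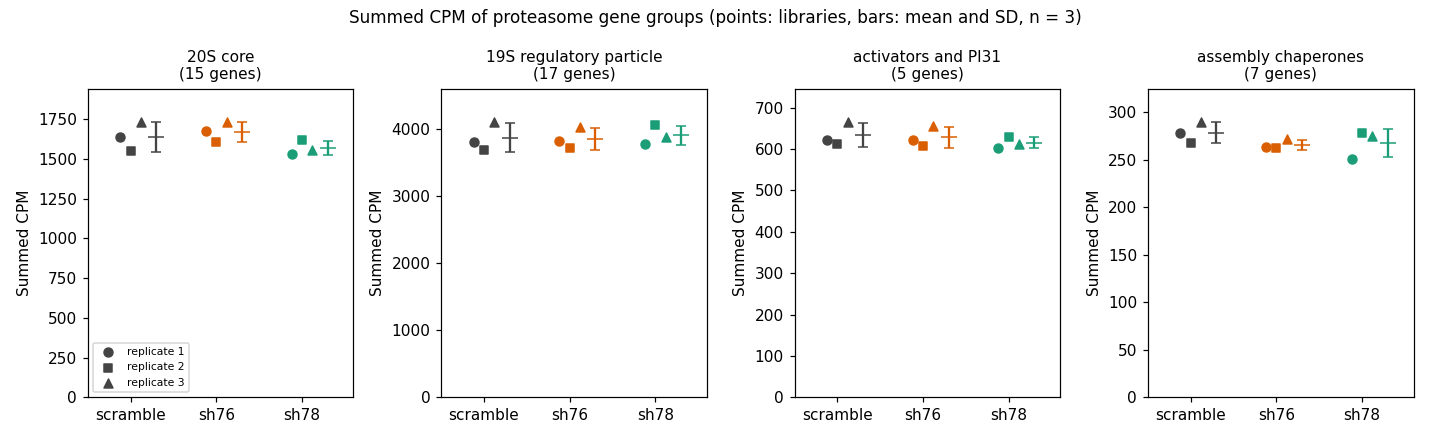
Summed CPM of the members of 4 groups (20S core, 19S regulatory particle, activators with PI31, assembly chaperones) in each library (points, shaped by replicate number), with mean and SD (n = 3) beside them. The groups overlap in each panel, and the libraries numbered 3 are highest in scramble and sh76. The 20S core sum leaves out PSMB10 and PSMB11.

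Of the catalytic subunits, PSMB5, PSMB6 and PSMB7 were not called against scramble, with or without the block. PSMB10, the interferon-inducible counterpart of PSMB7, was called higher with sh76 under the block. PSMB5 was at 76.8, 74.6 and 83.5 CPM in scramble, 77.7, 73.2 and 82.0 in sh76, and 79.1, 81.6 and 81.9 in sh78. PSMB6 was at 69.1, 61.1 and 67.9 CPM in scramble, 61.9, 59.6 and 64.0 in sh76, and 60.3, 61.5 and 57.7 in sh78. PSMB7 was at 187, 169 and 199 CPM, then 185, 164 and 190, then 173, 181 and 181. The ranges of all groups overlapped for each of these 3 genes. The log2 fold changes with sh76 and sh78 were −0.01 and 0.05 for PSMB5, −0.09 and −0.14 for PSMB6, and −0.04 and −0.06 for PSMB7, with edgeR adjusted p-values from 0.347 to 0.955. The 95% intervals reached from −0.16 to 0.20 for PSMB5 and from −0.30 to 0.06 for PSMB6 over both comparisons.

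PSMB4 differed between the hairpins. It encodes a structural beta subunit (ENSG00000159377, chr1:151399534-151401944, GRCh38, plus strand) and was at 379, 353 and 381 CPM in scramble, 425, 408 and 445 in sh76, and 348, 366 and 365 in sh78. Every sh76 library lay above every library of the other groups, while scramble and sh78 overlapped. It was lower in sh78 than in sh76 by −0.24 on the log2 scale (SE 0.06, 95% interval −0.37 to −0.12, edgeR adjusted p = 0.0323). This was 1 member called of 45 (2.22%), where the test called 3.70% of all genes, 1.72% of them lower in sh78. Against scramble the values were 0.20 (SE 0.06, edgeR adjusted p = 0.0762) with sh76 and −0.04 (SE 0.06, edgeR adjusted p = 0.777) with sh78. The call did not hold without any one of the 6 hairpin libraries: leaving out a sh76 or sh78 library gave edgeR adjusted p-values from 0.0659 to 0.127, and limma on FPKM gave 0.0554 or 0.0542.

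PSMA3, PSMB10 and PSME2 stood in the same order without passing the test. PSMA3, an alpha ring subunit (ENSG00000100567, chr14:58244831-58272012, plus strand), was at 96.8, 94.8 and 104 CPM in scramble, 114, 111 and 111 in sh76, and 92.3, 99.5 and 93.5 in sh78, and only sh76 lay apart. The difference of sh78 from sh76 was −0.23 (SE 0.06, edgeR adjusted p = 0.0593). PSMB10 (ENSG00000205220, chr16:67934502-67937087, minus strand) was at 20.1, 15.4 and 16.5 CPM in scramble, 26.03, 18.6 and 20.1 in sh76, and 14.3, 16.0 and 15.6 in sh78. Its sh76 libraries all lay above its sh78 libraries, both groups overlapped scramble, and sh76 replicate 1 was the highest. The difference was −0.50 (SE 0.14, edgeR adjusted p = 0.0720), the widest gap of any member between the hairpins. PSME2 (ENSG00000100911, chr14:24143362-24147570, minus strand) was at 83.3, 84.1 and 89.3 CPM in scramble, 88.9, 84.4 and 93.0 in sh76, and 72.3, 79.5 and 73.8 in sh78. Here sh78 lay below both other groups, and the difference from sh76 was −0.24 (SE 0.07, edgeR adjusted p = 0.0735). DESeq2 called 3 members between the hairpins, PSMA3, PSMB10 and PSMB4 lower in sh78 (6.67%, against 5.06% of all genes).

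PSME1, the partner of PSME2 in the PA28 cap, did not show that order. It was at 160, 155 and 179 CPM in scramble, 162, 156 and 165 in sh76, and 157, 163 and 163 in sh78, and the groups overlapped throughout. Its difference between the hairpins was −0.00 (SE 0.06, edgeR adjusted p = 0.995), with a 95% interval from −0.14 to 0.14. The interferon-inducible core subunits outside the naming rule, PSMB8 and PSMB9, had log2 fold changes of 0.17 and 0.43 with sh76 and 0.02 and 0.18 with sh78, with edgeR adjusted p-values from 0.173 to 0.963. With the block PSMB9 was called higher with sh76 (blocked edgeR adjusted p = 0.0215), and PSMB8 with neither hairpin. In sh78 against sh76, all 6 genes of the interferon-inducible list that holds PSMB8 and PSMB9 were below 0, at a median of −0.20. None of the 6 was called between the hairpins, with or without the block. With the block 1 of the 6 (16.7%) was called lower with sh78 against scramble, where 19.9% of all genes were called. Its blocked edgeR adjusted p was 0.0442. The interferon-response factor IRF1 had a difference between the hairpins of −0.18 (SE 0.15, edgeR adjusted p = 0.608) and was not called between them with the block.

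**Figure D5:**
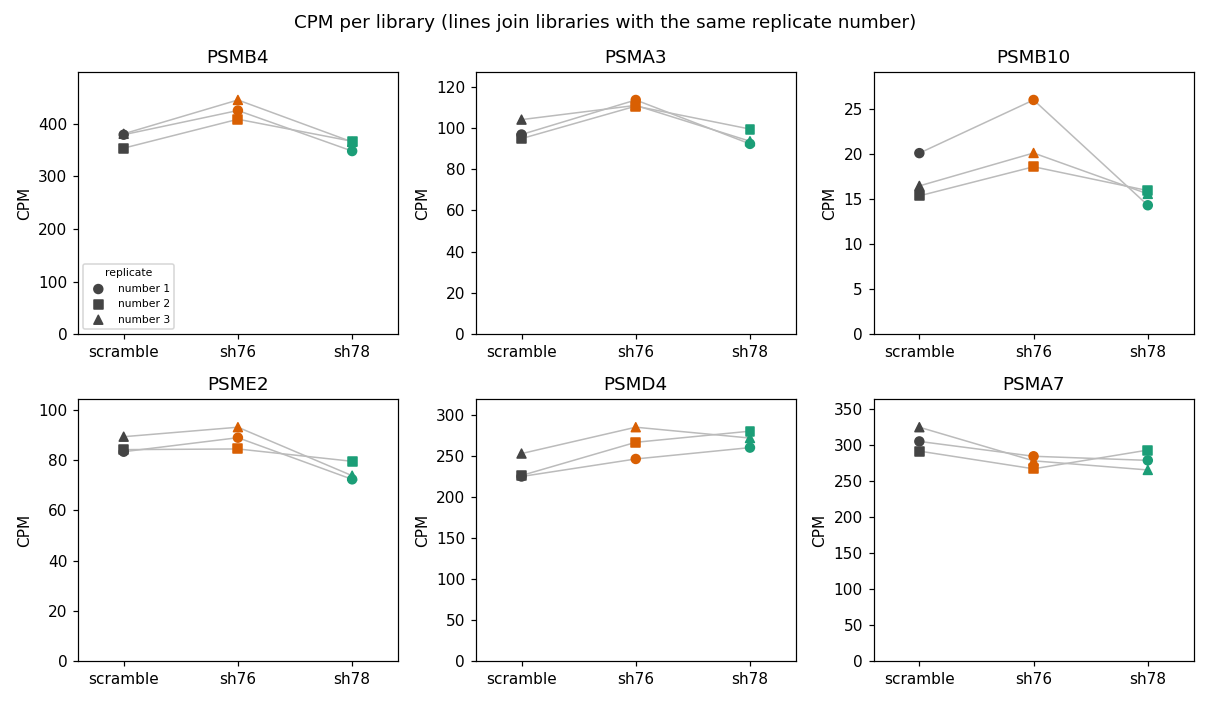
CPM in each library for PSMB4, PSMA3, PSMB10, PSME2, PSMD4 and PSMA7, with gray lines joining libraries of the same replicate number and each vertical axis starting at 0. PSMB4 is highest in the 3 sh76 libraries, PSME2 lowest in the 3 sh78 libraries, and PSMD4 is higher in both hairpin groups than in the scramble library of the same number.

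The promoters of PSMB10, PSME2, PSMB4 and PSMG4 are shown because these members had the lowest values of sh78 against sh76 among those that hold the letters of an interferon-stimulated response element. RefSeq promoter sequences (GRCh38.p14, 250 bases before to 50 after the start) were matched for 40 of the 46 proteasome genes. The motif GAAANNGAAA was searched on both strands and was found in 6 of the 40 (15%), against 3.65% of the 27305 promoters of that length. The 4 windows below lie before the start, at chr16:67936852-67936881 (PSMB10), chr14:24146619-24146648 (PSME2), chr1:151399495-151399524 (PSMB4) and chr6:3258904-3258933 (PSMG4). They are written 5′ to 3′ on the strand of the gene, with the motif in capitals.
PSMB10: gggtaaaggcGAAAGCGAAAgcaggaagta
PSME2: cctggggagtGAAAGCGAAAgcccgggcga
PSMB4: tcgtctacagGAAAAAGAAAgaaatgacac
PSMG4: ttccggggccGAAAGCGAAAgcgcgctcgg
The other 2 promoters with the motif belong to PSMA4 and PSME1. The sh78 against sh76 differences were −0.50 for PSMB10, −0.24 for PSME2, −0.24 for PSMB4, −0.23 for PSMG4, −0.01 for PSMA4 and −0.00 for PSME1. Of these 6 members only PSMB4 was called between the hairpins without the block, and the 4 windows were picked by these values, so they say nothing of a link. PSMA3 does not hold them in this window. A match in letters is a description and not a shown binding site.

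Letters of antioxidant-type elements, which NFE2L1 and its relatives are known to bind, were also searched on both strands. TGACNNNGC was found in 12 of 40 proteasome promoters (30%), against 13.6% of all promoters, and TGAGNNNGC in 13 (32.5%), against 18.4%; 19 held one or the other (47.5%, against 29.4%). The windows of PSMB3, PSMD3 and PSMD12, a beta subunit and a pair of regulatory particle subunits, are shown as examples of the first motif, at chr17:38752627-38752656, chr17:39980760-39980789 and chr17:67366723-67366752, with the motif in capitals on the strand of the gene.
PSMB3: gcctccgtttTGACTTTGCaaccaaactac
PSMD3: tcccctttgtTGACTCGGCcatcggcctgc
PSMD12: agacaaaaccTGACGCTGCaggctggagtg
None of these 3 genes was called. The 19 members with either motif include PSMA3, PSMD5, PSMD8 and PSME2, which were called in some comparison with the block. That fit called 18.3% to 20.4% of all genes in a single comparison. The share called in any comparison was not computed, for the 19 or for all genes. The other members called with the block are not among the 19, but not every member had a promoter to search. A link between motif and change was not tested. The CCAAT motif and a motif of the respiratory factor NRF1, a different factor from NFE2L1, were searched in the same way. They were found in 18 of 40 proteasome promoters (45%, against 35.7% of all promoters) and in 5 (12.5%, against 6.28%). Every motif searched was thus more frequent in these promoters, so the excess was not particular to interferon or antioxidant-type letters. Its cause was not tested. The log2 fold changes with sh76 and sh78 were −0.04 and −0.10 for PSMB3, −0.01 and 0.01 for PSMD3, and 0.06 and 0.05 for PSMD12, with edgeR adjusted p-values from 0.521 to 0.979.

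When the replicate number was entered as a block, libraries of the same number were compared. With the block edgeR called more members, at a lower share than among all genes when both directions were counted together. It called 5 of 45 members with sh76 (11.1%, against 20.4% of all genes), 7 with sh78 (15.6%, against 19.9%), 6 for the mean of both hairpins (13.3%, against 20.3%) and 5 between the hairpins (11.1%, against 18.3%). The lower share did not hold for every direction taken alone. With sh76, PSMB4, PSMA3, PSMB10 and PSMD4 were called higher and PSMA7 lower, against 1639 higher and 1828 lower of all 17023 genes. With sh78, PSMD4 was called higher and 6 members, PSMA7, PSMD8, PSMD10, PSME2, PSMF1 and PSMG3, lower. Of all 17023 genes, 1666 were called higher and 1722 lower. For the mean of both hairpins, PSMD4 was called higher and PSMA7, PSMD8, PSMD10, PSMF1 and PSMG3 lower, against 1597 genes higher and 1865 lower. Between the hairpins, PSMB4, PSMA3, PSMB10 and PSME2 were lower in sh78 with blocked edgeR adjusted p-values from 2.18e-05 to 0.000749, and PSMD5, a base assembly chaperone, was higher by 0.14 (blocked edgeR adjusted p = 0.0491, unblocked 0.298). Over all genes, 1650 were called higher and 1467 lower in sh78 than in sh76. With both hairpins in the same direction, 2 members were called, PSMD4 and PSMA7, where 8.29% of all genes were.

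PSMD4 (ENSG00000159352, chr1:151254703-151267479, plus strand) was at 225, 226 and 253 CPM in scramble, 246, 267 and 285 in sh76, and 260, 280 and 272 in sh78. The sh78 libraries lay above all scramble libraries, and sh76 overlapped them because scramble replicate 3 was above sh76 replicate 1. Within replicate numbers, each of the 6 hairpin libraries was above its scramble library, by 0.10 to 0.31 on the log2 scale. Without the block its values were 0.18 (SE 0.07, edgeR adjusted p = 0.181) with sh76 and 0.21 (SE 0.07, edgeR adjusted p = 0.122) with sh78, and the block gave edgeR adjusted p-values of 0.0019 and 0.000384. The hairpins differed by 0.02 (edgeR adjusted p = 0.915).

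PSMA7, an alpha ring subunit (ENSG00000101182, chr20:62136735-62143440, minus strand), was at 305, 292 and 325 CPM in scramble, 285, 267 and 278 in sh76, and 279, 293 and 266 in sh78. The sh76 libraries lay below all scramble libraries, and sh78 replicate 2 overlapped scramble. On the log2 scale its values were −0.15 and −0.14 (SE 0.06 each, edgeR adjusted p = 0.212 and 0.263), and with the block the edgeR adjusted p-values were 0.0132 and 0.0261.

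PSMG3, PSMF1, PSMD8 and PSMD10 were called lower with sh78 under the block but not without it, at log2 fold changes from −0.14 to −0.26. With the block they were also called lower for the mean of both hairpins. Their sh76 values, in the same order, were −0.14, −0.14, −0.09 and −0.15. None of them was called with sh76, with or without the block. PSMG3, a chaperone of core assembly, was at 36.3, 34.6 and 37.8 CPM in scramble, 33.1, 30.5 and 35.5 in sh76, and 29.6, 30.2 and 30.9 in sh78, with sh78 below scramble throughout. On the log2 scale it was at −0.26 with sh78 (SE 0.09, edgeR adjusted p = 0.112, blocked 0.00507). PSMF1 was at 75.3, 72.0 and 79.98 CPM in scramble and 66.0, 68.8 and 65.7 in sh78, which did not overlap, and its value was −0.18 (SE 0.07, edgeR adjusted p = 0.194, blocked 0.0150). PSMD8, a lid subunit, was at 605, 561 and 622 CPM against 527, 557 and 534, and PSMD10, a base chaperone also known as gankyrin, at 54.1, 51.2 and 60.7 against 45.1, 52.2 and 49.95. PSMD8 did not overlap scramble and PSMD10 did. Their values were −0.14 and −0.17 (edgeR adjusted p = 0.233 and 0.301, blocked 0.0126 and 0.0418).

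Counted by range alone, 8 of 45 members (17.8%) had sh76 libraries that did not overlap scramble, 4 above and 4 below, where 22.5% of all genes did (10.8% above, 11.7% below). With sh78 there were 7 (15.6%), 2 above and 5 below, against 21.5% of all genes (10.2% and 11.2%), and between the hairpins 7 (15.6%), 1 above and 6 below, against 21.8% (10.9% each way). By role, the 6 ATPases lay between −0.02 and 0.07 with sh76 and between −0.08 and 0.09 with sh78 on the log2 scale. The 8 lid subunits lay between −0.13 and 0.06 with sh76 and between −0.14 and 0.13 with sh78. The 7 tested alpha subunits lay between −0.15 and 0.23 with sh76 and between −0.14 and 0.34 with sh78, with PSMA2 at the upper end at 3.69 ± 0.346 CPM in scramble, 4.35 ± 0.262 in sh76 and 4.68 ± 0.577 in sh78 (SD, n = 3). PSMC3IP, matched by name alone, was at 4.77 ± 0.599, 5.29 ± 1.53 and 5.43 ± 0.530 CPM (SD, n = 3) and was not called.

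Genes that work with the proteasome were examined through 5 lists: partners named otherwise, shuttle receptors, the NFE2L1 pathway, ubiquitin and E1 genes, and the interferon-inducible axis with PSMB8 and PSMB9. Of their 39 tested genes, edgeR called 0 with sh76 (6 at an unadjusted p under 0.05), 0 with sh78 (4) and 1 between the hairpins (2.56%), where it called 3.58%, 4.41% and 3.70% of all genes. With the block it called 6 (15.4%), 7 (17.9%) and 6 (15.4%), against 20.4%, 19.9% and 18.3% of all genes. The one called without the block was PAAF1, a chaperone of the regulatory particle ATPases, at 28.3, 31.3 and 31.2 CPM in scramble, 26.1, 26.7 and 24.1 in sh76, and 31.7, 34.5 and 33.0 in sh78. The 3 groups did not overlap, sh76 was the lowest, and the difference of sh78 from sh76 was 0.37 (SE 0.09, edgeR adjusted p = 0.0326).

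NFE2L1 was at 268, 275 and 287 CPM in scramble, 230, 253 and 270 in sh76, and 235, 246 and 238 in sh78. All sh78 libraries lay below scramble, and sh76 replicate 3 overlapped it. Its changes on the log2 scale were −0.14 (SE 0.06, edgeR adjusted p = 0.275, blocked 0.0142) and −0.21 (SE 0.06, edgeR adjusted p = 0.0953, blocked 0.000375). Over the 11 genes of its pathway list the median was −0.03 with sh76 and −0.10 with sh78, with 0 called by edgeR in either. With the block 1 (9.09%) and 3 (27.3%) were called, all lower, against 20.4% and 19.9% of all genes. The 3 with sh78 were NFE2L1 itself, SEL1L and SYVN1, the last a pair that form a ubiquitin ligase complex of the endoplasmic reticulum. Of the 5 shuttle receptors, which carry ubiquitinated proteins to the proteasome, edgeR called 0 in any comparison without the block, and with it 2 lower with sh76 (40%), 1 lower with sh78 (20%) and 1 higher in sh78 than in sh76 (20%), against 20.4%, 19.9% and 18.3% of all genes.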

How the data were processed

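Per the labels' protocols, poly-T-selected mRNA was made into non-directional libraries, so reads carry no strand. The submitters' processing notes name HISAT2 2.0.5, featureCounts 1.5.0-p3 and hg38, with no role or setting. The authors deposited raw counts per gene and FPKM values; the deposited FPKM equalled count divided by gene length and a single size per library. The authors' gene identifiers all matched GENCODE 29 (GRCh38) in name, start and end.

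Counts were tested in R 4.3.3 with edgeR 4.0.16 (filterByExpr with minimum count 10 and minimum total 15, TMM scaling, robust quasi-likelihood F test, 1 coefficient per group, 6 residual degrees of freedom). Filtering left 17023 genes. Adjusted p-values are Benjamini-Hochberg over all of these, and calls are at an adjusted p under 0.05. Standard errors and 95% intervals come from the same fit, whose common biological coefficient of variation was 10.4%. CPM uses TMM factors. The procedure was tested on simulated counts drawn without any effect of replicate number. That test is not used here to say how many small changes were missed. DESeq2 1.42.0, limma 3.58.1 on log2(FPKM + 1) or log2(FPKM + 0.1), RLE scaling, no filter, only the groups compared, a replicate block and leaving out each library were the alternatives.

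Replicates differed beyond counting noise: chi-square per degree of freedom was 5.23 to 11.8 in the 9 within-group pairs. The labels number replicates 1 to 3 in each group. Deviations from group means correlated at 0.192 to 0.455 in the 9 same-numbered pairs and at −0.361 to 0.076 in the 18 others. Deviations cancel out within a group, so the negative values follow in part from the positive ones. From the same-numbered pairs, the numbers were read as pairing the libraries. The main fit, its standard errors and its intervals do not use this pairing. The block leaves 4 residual degrees of freedom.

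The members and gene lists were chosen with earlier results of these data known. Members were given in full if called without the block in any comparison, with PSMB5, PSMB6, PSMB7, PSMB10, PSME1 and PSME2 as named exceptions, and members that failed the count filter by their counts; related genes were named if called. PSMA3, members called only with the block, the related genes named beside them and the members named for level, shared sequence or promoter were added after their values were seen.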

Additional observations from a re-analysis of the deposited data

Results flagged for a closer look

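PSMB4 differed between the hairpins in a direct test: sh78 was at −0.24 on the log2 scale relative to sh76 (edgeR adjusted p = 0.0323), with all 3 sh78 libraries below all 3 sh76 libraries. Groups of 3 libraries were not examined for single outlying values.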

How the results depend on the processing

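The count of members called with sh76 was 0 and became 1 with DESeq2 and 5 with the replicate block. With sh78 it was 0 and became 7 with the block. For the mean of both hairpins it was 0 and became 1 without the count filter (PSMD4) and 6 with the block, and with both hairpins in the same direction it was 0 and became 2 with the block. Between the hairpins it was 1 and became 3 with DESeq2, 2 without the filter and 5 with the block. It became 0 there with limma on either FPKM scale. The block's shares of members were 11.1% with sh76, 15.6% with sh78, 13.3% for the mean and 11.1% between the hairpins. Over all genes they were 20.4%, 19.9%, 20.3% and 18.3%. Leaving out 1 library kept 0 members in the first 4 counts and gave 0 to 2 between the hairpins: 0 without any sh76 or sh78 library, and 2 without scramble replicate 1.

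Over all genes, the calls with sh76, with sh78, for the mean and between the hairpins were 610, 750, 687 and 629. They became 1149, 1212, 1181 and 1125 without the filter, and 3467, 3388, 3462 and 3117 with the replicate block. Leaving out 1 library gave 237 to 655, 418 to 810, 299 to 726 and 273 to 780, the lowest without sh76 replicate 2 for both comparisons with sh76 and without scramble replicate 2 for the other 2. The count fell by over 1.5 times with sh76 without scramble replicate 2 (313) or 3 (333) or sh76 replicate 2 (237) or 3 (339); with sh78 without scramble replicate 2 (418) or 3 (458) or sh78 replicate 2 (469) or 3 (453); for the mean without scramble replicate 2 (299) or 3 (337) or sh76 replicate 2 (391); and between the hairpins without sh76 replicate 2 (273) or 3 (368) or sh78 replicate 1 (344), 2 (375) or 3 (351). Between the hairpins the split of 336 higher and 293 lower became 206 and 244 with limma on log2(FPKM + 1). The cause was not tested for any of these.

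The fold change of PSMB4 between the hairpins ran from −0.27 to −0.21 over 16 alternatives, called in 8, with adjusted p from 2.18e-05 to 0.127. Of 945 alternative fold changes of named members, 909 kept their side of the threshold, 28 gained a call, 8 lost one and 0 reversed a call; 35 changed sign where neither value was called. The block changed no call of a named member beyond those given above. Fitting only the groups compared gives no value for the mean of both hairpins. Depth limits precision most for the lowest members, PSMA2 and PSMC3IP.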
